A study of Homo sapiens with 6 samples.

Results

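The genes described here build cholesterol and fatty acids, or sense and move sterols. They are 36 genes chosen by name, and all 36 are among the 15917 genes that the authors' deposited table lists. The samples were MDA-MB-231 cells, an established human line of triple-negative breast cancer, and their total RNA was sequenced in 6 libraries to ask which transcripts depend on the RNA binding protein RBMS3. Of these, 2 libraries came from cells with the control hairpin shCTRL and 4 from *RBMS3* knockdown cells, 2 with the hairpin shRBMS3-B3 and 2 with shRBMS3-C3. The hairpins were delivered by lentivirus into a single cell line, and all groups were cultured in the same serum-containing medium. The labels number the libraries of a group as biological replicates.

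What is described is the authors' deposited mean normalized count, which is 1 value per gene with no value of a single library. A normalized count is the number of reads assigned to a gene after scaling for library size, and the mean is taken over libraries of the comparison of knockdown with control cells. Which of the 6 libraries entered it is not stated in the sources used here. It carries no replicate error, depth per library is unknown, and differences between knockdown and control cells were not analysed here. *RBMS3* itself had a mean normalized count of 272, which joins control and knockdown cells and so is no check of the knockdown. The 9 genes taken as markers of this type of line, among them *VIM*, *CD44* and *AXL*, were all listed, with mean normalized counts from 4340 to 69336. Of 11 markers of luminal breast cells, taken as low in this line, 7 were listed, and 3 of the 7 were above the median of the table. *CDH1* was at 31.6 and *EPCAM* at 107. The keratin genes *KRT8* and *KRT18* stood at 17802 and 12689 and *ERBB2* at 1557, and these went against their place in that list.

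Cells make sterols and fatty acids from the same cytosolic acetyl-CoA. In the mevalonate pathway acetyl-CoA is joined into isoprenoid units and then into farnesyl diphosphate, which is condensed to squalene, closed to lanosterol and trimmed to cholesterol. Both branches are controlled by the SREBP transcription factors, which SCAP carries from the endoplasmic reticulum to the Golgi for cleavage when sterols are scarce, while INSIG proteins hold them back when sterols are plentiful. SREBP-2, the product of *SREBF2*, acts mainly on sterol genes and SREBP-1, the product of *SREBF1*, on fatty acid genes.

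Both the promoters and the 3′UTRs of these genes were searched for regulatory sequences. The promoter sequence is the sterol regulatory element, to which SREBPs bind, and the windows below are the promoter matches found among the genes. The capitals mark the 9 bases searched, read 5′ to 3′ on the strand of the gene, in RefSeq promoters of GRCh38.p14. The strict form TCACNCCAC was found in *SREBF2* (chromosome 22, 41832962 to 41832990, plus strand). The relaxed form TCANNCCAC was also found in *INSIG1* (chromosome 7, 155297760 to 155297788, plus strand) and in *ACLY* (chromosome 17, 41919244 to 41919272, minus strand).
SREBF2: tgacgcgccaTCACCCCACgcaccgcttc
INSIG1: cggggcaagcTCAGGCCACgcccctgggc
ACLY: aagcgaTCAGGCCACaacccccagcaccg

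The 3′UTR sequence is the AUA motif, the element that the study connects with RBMS3. It is 7 bases long, with any base but C at the start, then A or T, then ATA, then A or T, and A at the end, and it is written here with T as in the reference. To show it in its setting, the first match after the stop codon is given for the gene of highest level per kilobase with a match in each role, except that *EBP* is shown for the sterol steps in place of *FDFT1*. The capitals mark the motif. All windows lie in the 3′UTR exon of the representative GENCODE transcript on GRCh38.
SCD: gtcgggtcaaAAATAAAatatatatac
ACLY: ataagcatagAAATAAAaaccaagcca
INSIG1: tcatttttacTTATAAAtttacctttt
ACAT2: ctttttaaacTAATAAAgtactaggtt
EBP: acaagaagggGAATAAAggggctgtgt
NPC1: gtacacatttTTATATAaaaaaacagc

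The *SCD* window lies on chromosome 10 from 100361994 to 100362020 on the plus strand, with the motif 1070 bases after the stop codon. The *ACLY* window lies on chromosome 17 from 41867583 to 41867609 on the minus strand, 210 bases after the stop. That of *INSIG1* is on chromosome 7 from 155309507 to 155309533 on the plus strand, 1246 bases after the stop. The *ACAT2* window spans 159778859 to 159778885 on the plus strand of chromosome 6 and begins its motif only 39 bases after the stop. The *EBP* window spans 48528587 to 48528613 on the plus strand of the X chromosome, 139 bases after the stop. The *NPC1* window spans 23531713 to 23531739 on the minus strand of chromosome 18, 472 bases after the stop. In *SCD*, *ACLY*, *ACAT2* and *EBP* the motif shown contains AATAAA, the letters of the polyadenylation signal. Each of these genes has a later match with the same letters, in *SCD* 3870 bases after the stop in a 3′UTR of 3893. Whether the copies shown act as signals was not tested.

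The genes stood high in these cells. To compare genes with each other, the mean normalized count was divided by the length of the representative transcript in kilobases. The median of the 36 genes was 499 per kb, against 137 per kb over all listed genes with a transcript length. Above the median of all listed genes were 31 of the 36, or 86.1%, and 12 of the 36, or 33.3%, lay among the highest 10% of listed genes. No gene lay among the lowest 20%. Together the 36 genes held 0.676% of the summed mean normalized counts of the table. From the lowest, *MBTPS2*, to the highest, *SCD*, the level per kb differed 105-fold. These are counts over genes chosen by name, so they describe the list and are not a test.

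**Figure D1:**
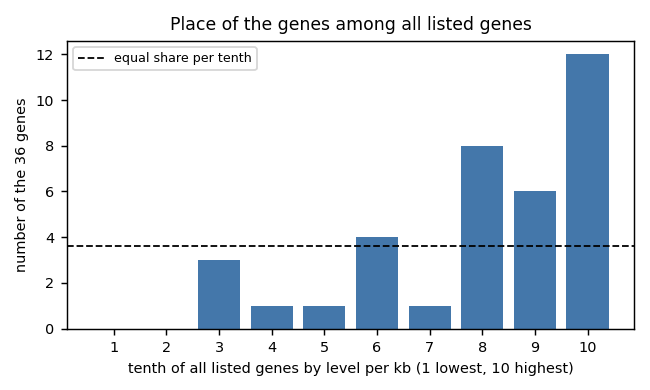
Number of the 36 cholesterol and fatty acid genes (vertical axis) in 10 equal classes of the listed genes, ranked by level per kb (horizontal axis, 1 lowest), with a dashed line at an equal share. Class 10 holds 12 of the genes, and classes 1 and 2 hold 0.

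Fatty acid synthesis and desaturation led the list. With representative transcripts *SCD*, the desaturase that makes oleate from stearate, had the highest level of all, at 4939 per kb. Its mean normalized count was 25906. *FASN*, the multi-domain fatty acid synthase, had the largest mean normalized count, 37747, and was next at 4460 per kb. The ratio of *SCD* to *FASN* was 1.11, but 0.0555 with the median length of each gene's transcripts, so that order turned. At that length other genes were above *SCD* too, among them *FADS1* at 11581 per kb. *ACLY*, which splits citrate into cytosolic acetyl-CoA, reached 2865 per kb with a mean normalized count of 12300. *ACSS2*, which makes acetyl-CoA from acetate instead, stood at 374 per kb, so that the ratio of *ACLY* to *ACSS2* was 7.67, or 3.72 with the median length of each gene's transcripts. *ACACA*, the carboxylase that makes malonyl-CoA and so commits carbon to fatty acids, had a mean normalized count of 5028 on a transcript of 10013 bases and came to 502 per kb. *ELOVL6*, which lengthens palmitate to stearate, was the lowest of these enzymes at 153 per kb, close to the median of all listed genes.

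The desaturases of polyunsaturated fatty acids were also among the highest 10% of listed genes. *FADS2*, the delta-6 desaturase, had a level of 2092 per kb and *FADS1*, the delta-5 desaturase, of 1698 per kb. Their order depended on the length used. The ratio of *FADS1* to *FADS2* was 0.812 with representative transcripts and 1.33 with the longest ones. The genes lie next to each other on chromosome 11, *FADS1* on the minus strand from 61799627 to 61829318 and *FADS2* on the plus strand from 61792980 to 61867354, and their annotated spans overlap.

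Among the early steps of the mevalonate pathway, *FDPS*, which makes farnesyl diphosphate, was the highest. It had a level of 3516 per kb and a mean normalized count of 4982. *ACAT2*, the cytosolic thiolase that joins acetyl-CoA into acetoacetyl-CoA, followed at 1384 per kb. *IDI1*, which isomerizes the first isoprenoid unit, was at 532 per kb. The kinases and the decarboxylase between them were lower, with *PMVK* at 468, *MVK* at 332 and *MVD* at 327 per kb. *HMGCS1*, which makes HMG-CoA, was the lowest of this group with representative transcripts, at 190 per kb. Its mean normalized count of 1016 was above that of *MVK*, 939, and a transcript of 5350 bases put it below *MVK* per kb. With the median length of each gene's transcripts the order of the pair turned, and the ratio of *HMGCS1* to *MVK* went from 0.573 to 2.63. At that length *HMGCS1*, at 1434 per kb, was above all others of this group but *FDPS*. All 7 genes of these steps were above the median of all listed genes.

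The steps from squalene to cholesterol covered a wider range. *FDFT1*, the squalene synthase, was highest at 1929 per kb. *EBP*, the sterol isomerase, was at 1148 and *DHCR7*, the last reductase on the route through 7-dehydrocholesterol, at 1095 per kb. *CYP51A1*, the lanosterol demethylase, reached 950 and *LSS*, the lanosterol synthase, 865 per kb. *NSDHL* and *MSMO1*, which remove the methyl groups at C-4 of the sterol ring, were at 496 and 376 per kb. *SQLE*, the squalene epoxidase often described as rate limiting, was lower, at 256 per kb with a mean normalized count of 759. The low end was held by *HSD17B7*, the 3-ketosteroid reductase, at 153 per kb, *TM7SF2*, a C-14 sterol reductase, at 122 per kb, and *SC5D*, the sterol C-5 desaturase, at 55.6 per kb. Of these 11 genes, 9 were above the median of all listed genes, and *TM7SF2* and *SC5D* were below it. *SC5D* has a transcript of 6854 bases, of which 5898 are 3′UTR, and by mean normalized count alone, 381, it lay just above the median of the table, 364.

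Of the SREBP pathway, the gene with the highest level was *INSIG1*, itself a classical SREBP target, at 1632 per kb. That order held with the longest transcripts too, but not otherwise: by mean normalized count *SREBF1*, at 5169, was above *INSIG1*, at 4746, and with the median length of each gene's transcripts *SREBF1* (7421 per kb) and *SREBF2* (4713 per kb) were above *INSIG1* (3879 per kb). *INSIG2*, the paralog, was at 59.2 per kb, and the ratio between them was 27.6. With the median length of each gene's transcripts it was 11.5, so *INSIG1* stayed the higher of the pair. *SREBF1* was at 1055 and *SREBF2* at 716 per kb, a ratio of *SREBF2* to *SREBF1* of 0.679. That ratio stayed between 0.624 and 0.679 under the lengths tried. *SCAP*, the escort protein, was at 366 per kb. The proteases that release SREBPs in the Golgi differed: *MBTPS1*, the site-1 protease, was at 445 per kb, and *MBTPS2*, the site-2 protease, at 47.0 per kb had the lowest level of the 36 genes. *INSIG2* and *MBTPS2* were below the median of all listed genes, and the other 5 genes of the pathway were above it.

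**Figure D2:**
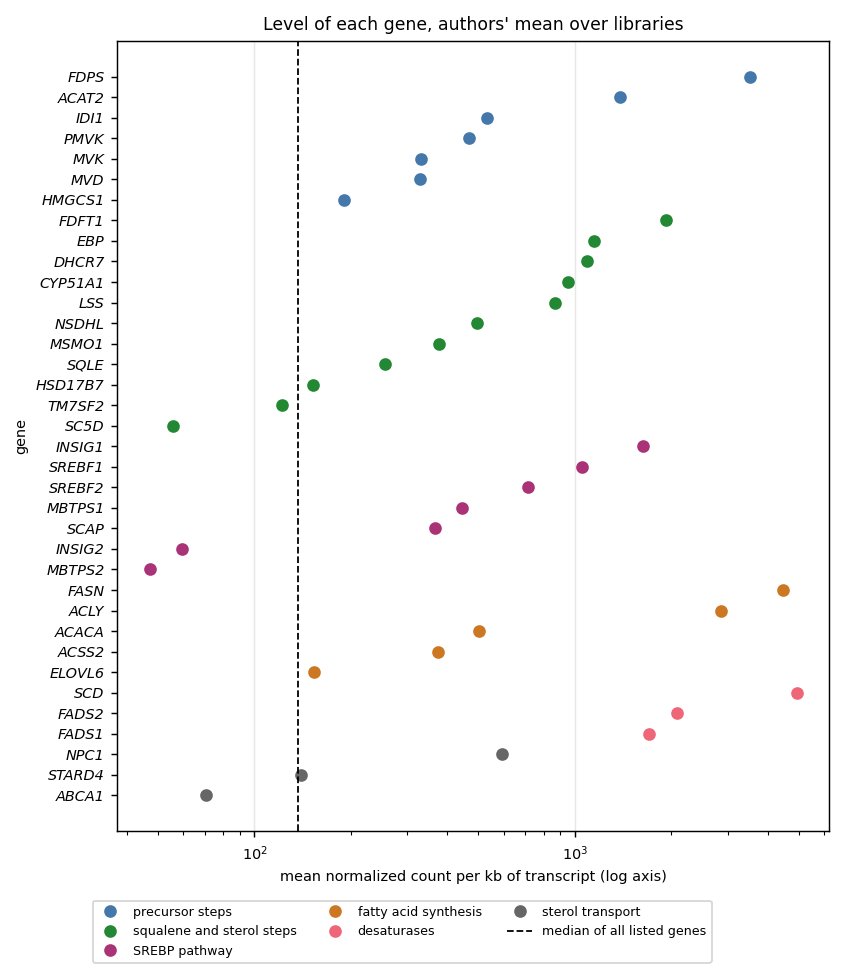
Mean normalized count per kb of representative transcript (horizontal log axis) for each of the 36 genes (vertical axis), coloured by role. Each point is the authors' single mean over libraries, without replicate error, and the dashed line is the median of all listed genes, 137 per kb. The range runs from 47.0 for *MBTPS2* to 4939 for *SCD*.

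Among the genes of sterol transport, *NPC1*, which moves cholesterol out of late endosomes and lysosomes, was at 594 per kb. *STARD4*, a cytosolic sterol carrier, was at 140 per kb, next to the median of all listed genes. *ABCA1*, the exporter of cholesterol to apolipoprotein A-I, was at 70.8 per kb, below that median, although its mean normalized count of 737 was above the median by count, since its transcript has 10408 bases. The ratio of *NPC1* to *ABCA1* was 8.39.

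Other genes of lipid synthesis and sterol handling were taken from a separate list of 42. Of these, 35 were listed in the table, and 27 of the 35 were above the median of all listed genes per kb. The lowest of them was *ABCG1*, a sterol exporter, at 9.35 per kb. Some paralogs stood below the enzymes above and others did not. The ratio of *ACACA* to *ACACB*, the carboxylase at the mitochondrial surface, was 11.5, and that of *SCD* to *SCD5* was 25.3. The elongases were mixed. *ELOVL5*, which lengthens polyunsaturated fatty acids, had 6.23 times the level per kb of *ELOVL6*, or 1.95 times with the median length of each gene's transcripts. For *ELOVL1* the ratio to *ELOVL6* was 5.15, but 0.800 with the median length, so that order turned. *ELOVL7*, at 29.6 per kb, was below *ELOVL6*, at 153 per kb.

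Transcript length decided how high some of the genes stood. The annotation holds many short transcripts for several of them, and with the median length of all annotated transcripts in place of the representative one, *FASN* moved from 4460 to 89026 per kb. *SCD*, which has 1 annotated transcript, stayed at 4939. *SREBF1* moved from 1055 to 7421 per kb and *ACACA* from 502 to 6513 per kb. The longest transcript moved fewer genes, with *FDPS* going from 3516 to 2470 and *HSD17B7* from 153 to 75.5 per kb.

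**Figure D3:**
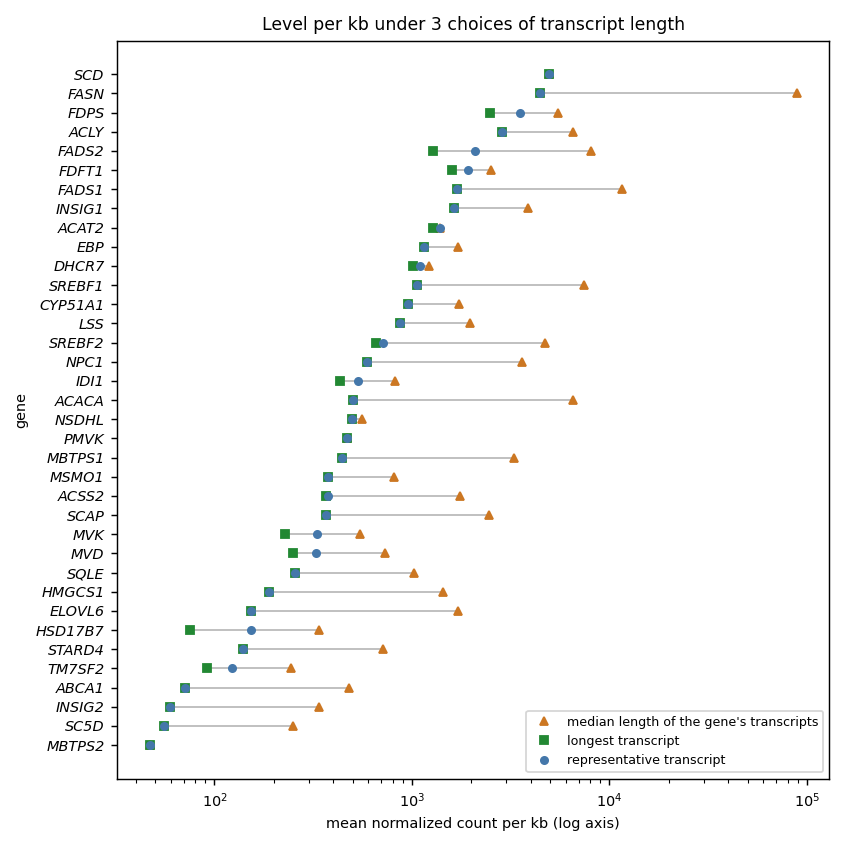
Mean normalized count per kb (horizontal log axis) of the 36 genes (vertical axis) with the length of the representative transcript (circles), the longest transcript (squares) and the median of all annotated transcripts (triangles). Grey lines join the 3 values of a gene. The line is longest for *FASN*, from 4460 to 89026, and *SCD* and *PMVK*, with 1 transcript each, do not move.

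Some reads may be shared with other loci. At least 1 annotated gene on the opposite strand overlapped 22 of the 36 genes, and 11 of the 36 had such a gene on their own strand. Whole annotated spans were compared, introns included, so small genes within introns, such as *MIR33A* in *SREBF2*, are counted. Exons were not compared and the share over all listed genes was not computed, so these counts do not measure shared reads. The library kit keeps strand, and the setting used in counting is not given in the sources used here. Pseudogenes named after the gene are annotated for 5 of the 36. *HSD17B7P2* had a mean normalized count of 38.6, which is 16.6% of that of *HSD17B7*. *SCDP1* had 69.5, which is 0.268% of that of *SCD*. Whether reads were misassigned between a gene and its pseudogenes was not tested.

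The AUA motif was no more frequent in these genes than in the table. At least 1 match in the 3′UTR was found for 30 of 36 genes, or 83.3%, against 84.8% of the 12351 listed genes with a 3′UTR. At least 3 matches were found for 19, or 52.8%, against 53.1%. The median 3′UTR of the 36 genes was 1253 bases long with 55.8% A+U, and that of all listed genes 1378 bases long with 57.9% A+U. The median density was 2.50 matches per kb of 3′UTR, against 2.43. Of the 172 matches in the 36 genes, 68 contain AATAAA, and over all listed genes 25769 of 71510 do.

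The genes differed widely among themselves. *SC5D* had the most matches, 23, in its 3′UTR of 5898 bases. *INSIG2* had 16 matches in 2675 bases, whereas *INSIG1* had 3 in 1965 bases. *HMGCS1* had 14 in 3661 bases, *STARD4* 13 in 3853, *MBTPS2* 11 in 2768 and *SCD* 11 in 3893. The densest short 3′UTRs were those of *HSD17B7*, with 8 matches in 403 bases, and *SQLE*, with 6 in 338 bases. The 6 genes without a match were *FDPS*, *TM7SF2*, *NSDHL*, *SCAP*, *MBTPS1* and *FASN*. Their 3′UTRs measured 56 to 805 bases, at 36.8% to 56.0% A+U. Across the 36 genes, Spearman's rho between level per kb and motif density was -0.25, and across the 12351 listed genes it was -0.06. Both are descriptions across genes that share libraries. The length of the 3′UTR divides the motif count and is also part of the length that divides the level. Between level per kb and 3′UTR length rho was -0.19 across the 36 genes and -0.34 across the 12351 listed genes.

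**Figure D4:**
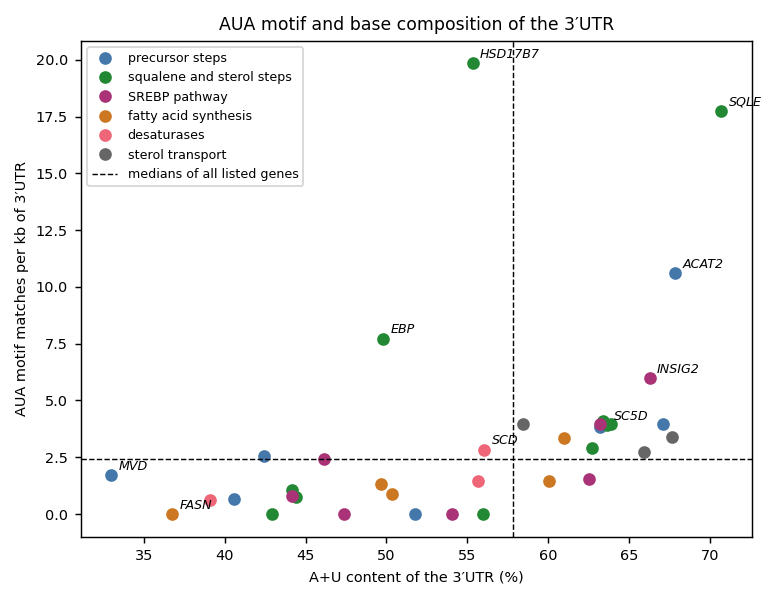
A+U content of the 3′UTR in percent (horizontal axis) and AUA motif matches per kb of 3′UTR (vertical axis) for the 36 genes, coloured by role, with dashed lines at the medians of all listed genes, 57.9% and 2.43. Overlapping matches are counted separately. *HSD17B7* and *SQLE* lie highest, at 19.9 and 17.8 matches per kb, and *FASN* lies at 0.

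In promoters, the boxes of the known partners of SREBP were common in these genes. RefSeq promoters of 300 bases, from 250 before to 50 after the start, were matched by symbol for 32 of the 36 genes, and not for *ACAT2*, *FASN*, *FDFT1* and *SQLE*. CCAAT, the box of NF-Y, was found on either strand in 18 of 32, or 56.2%, against 36.9% of the 9689 promoters of listed genes and 35.7% of all 27305 promoters. GGGCGG, the GC box of Sp1, was found in 28 of 32, or 87.5%, against 70.5% of promoters of listed genes and 44.6% of all promoters. Of the separate list of other lipid genes, 26 had a promoter, with CCAAT in 46.2% and GGGCGG in 80.8%. The promoters of the 32 genes had a median GC content of 67.5%, against 65.3% for listed genes. The CCAAT box was found in 12 of the 15 genes of the early and sterol steps, with 5 matches each in *MVK* and *NSDHL* and 4 in *MSMO1*, and in 6 of the 17 other genes. That split by role was looked at after the values were seen and is a description.

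The strict sterol regulatory element was found in 1 of 32, *SREBF2*, or 3.12%, against 1.18% of promoters of listed genes and 1.15% of all promoters. The match shown above begins 133 bases before the RefSeq start of *SREBF2*, and the nearest CCAAT box begins 27 bases from it. The relaxed form, which includes the strict one, was found in 3 of 32, or 9.38%, against 3.29% of promoters of listed genes and 3.92% of all promoters. In *INSIG1* the relaxed match begins 108 bases and in *ACLY* 244 bases before the start. With windows at the start of the representative transcript, the relaxed form was found in 2 of 32, *SREBF2* and *INSIG1*, and not in *ACLY*. Genes without a match lack only these letters in this window.

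**Figure D5:**
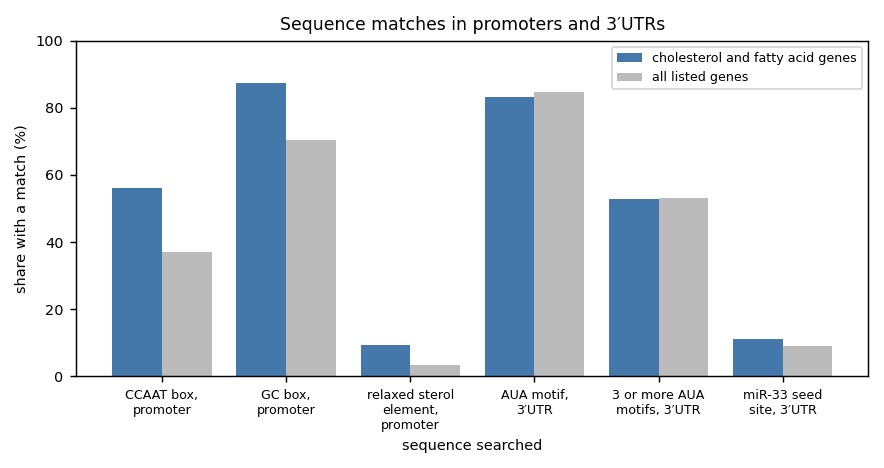
Share of genes with at least 1 match (vertical axis, percent) for 6 searches (horizontal axis), in the cholesterol and fatty acid genes (blue, 32 promoters or 36 3′UTRs) and in all listed genes (grey). The CCAAT box is found in 56.2% and 36.9% and the AUA motif in 83.3% and 84.8%.

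The SREBP genes also carry microRNAs. *MIR33B* lies in intron 16 of the representative transcript of *SREBF1*, on the minus strand of chromosome 17 (mature miR-33b-5p from 17813897 to 17813916), and *MIR33A* in intron 16 of that of *SREBF2*, on the plus strand of chromosome 22 (mature miR-33a-5p from 41900949 to 41900969). The mature sequences are those of RefSeq on GRCh38.p14, with bases 2 to 8, the seed, in capitals.
miR-33a-5p: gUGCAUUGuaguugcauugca
miR-33b-5p: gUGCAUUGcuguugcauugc

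Both share 1 seed, which pairs with CAATGCA in a target. *ABCA1* is the textbook target of miR-33. In the 3′UTRs of the 36 genes CAATGCA occurs in 4, or 11.1%, against 9.15% of all listed genes. *ABCA1* has 4 matches, overlaps counted, and *NPC1*, *SCAP* and *LSS* have 1 each. At least 2 matches are found in 1.11% of listed genes. A window of *ABCA1* (chromosome 9, 104784168 to 104784194, minus strand, match 134 bases after the stop codon) and that of *NPC1* (chromosome 18, 23531868 to 23531894, minus strand, 321 bases after the stop) are shown with the match in capitals. The *ABCA1* window also holds the next match, 139 bases after the stop, which overlaps the first and is not marked. Levels of the microRNAs were not measured here.
ABCA1: gtactgatactattCAATGCAatgcaa
NPC1: ctgtaaaggccaatCAATGCActgtct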

How the data were processed

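Total RNA was extracted from MDA-MB-231 cells, and the authors depleted ribosomal cDNA, kept strand information and sequenced both ends of the fragments. The submitters' processing notes name Salmon, DESeq2 and hg38, and the versions used for this experiment are not given in the sources used here. The authors deposited 1 table, whose signal, a mean normalized count, was at least 26.7 in all 15917 rows. Its other 5 value columns hold the authors' own comparison of knockdown with control (fold change, error, statistic, p-value and adjusted p-value) and were not used. The planned count test therefore could not be run, since no values of single libraries were analysed.

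The 36 genes were taken by symbol, and genes and lists were chosen with earlier results of these data known. Annotation came from GENCODE release 44 (GRCh38), which holds 15829 of the 15917 Ensembl identifiers. The representative transcript was MANE Select, as for all 36, or else Ensembl canonical or the one with the longest coding sequence. Motifs were counted with overlaps, in 3′UTRs of at least 7 bases on the transcript strand and in RefSeq promoters on both strands. The 168 windows that were read back from the genome matched it. The microRNA search and the split of promoters by role were added after the values were seen. All 36 genes are named, with *RBMS3*, and of the other lists a few. Some values of that kind are not reported here. The searches were tested on simulated sequences. Python 3.11.15, pandas 2.3.3, numpy 2.4.6, SciPy 1.17.1 and matplotlib 3.10.9 were used.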

Additional observations from a re-analysis of the deposited data

How the results depend on the processing

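Over 5 results, 11 alternatives were computed, of which 1 was chosen after seeing the data, and 7 left the count of genes within 1.5 times. The alternatives for the median level are not counts of genes, and that limit was not applied to them. The count of genes above the median ranged from 29 to 33 of the 36 over the settings tried, by mean normalized count or per kb. The median was that of all listed genes, except in the settings with protein-coding genes only (30) and genes of at least 100 (29), both by mean normalized count. The median level of the 36 genes, 499 per kb, was 482 with the longest transcript and 1707 with the median transcript length, where many short annotated transcripts shorten the length. The number with the AUA motif, 30, was 19 when at least 3 matches were asked for. The number with a sterol regulatory element, 1, was 3 with the relaxed letters, and 1 with windows at the start of the representative transcript, where the relaxed letters gave 2 and *ACLY* had no match. No paired analysis was possible because each deposited value is 1 mean per gene and carry no replicate. The alternatives planned for a comparison of knockdown with control (another normalization, no filter on low counts, each replicate left out) were not run for the same reason. Depth per library is unknown, and no level has an error, so that genes of similar level cannot be ordered.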
